A study of Arabidopsis thaliana with 12 samples.

Results

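The 5 genes described here had lower transcript signals in Arabidopsis thaliana roots on low sulfate: AT1G21440, AT2G28780, AT3G57010, AT3G14280 and AT2G23910. They are 5 of 13356 genes that the annotation pairs with a probe set of their own, and each has 1 of the 22810 probe sets on the array. They were chosen on their fall in the parental line, so that fall is given as a description without a test. The tests below compare arrays of the slim1-1 and slim1-2 lines, whose levels were not used in the choice by that fall. The spread in each test was estimated from all 12 arrays, so the parental arrays enter its SE and p-value. The choice also required a called fall, which depends on the same spread, so the tests are not fully independent of the choice. AT1G21440, AT2G28780 and AT3G57010 were called lower (adjusted p under 0.05 from limma) on low sulfate in both mutant lines, and AT3G14280 and AT2G23910 in slim1-1. AT2G23910 was also called lower in slim1-2 than in slim1-1 on sufficient sulfate, where its slim1-2 signals were weak. It passed the filter on low signals only with the parental arrays, so its tests depend on the choice in that way too. The calls of AT3G14280 and AT2G23910, and that of AT3G57010 in slim1-2, were lost in some of the alternative fits below. Without normalization between arrays, AT1G21440 alone was called, in slim1-1 and in the average over both mutant lines.

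The parental line, P, is Columbia with a T-DNA that carries the SULTR1;2 promoter joined to GFP, a reporter of sulfur limitation. The slim1-1 and slim1-2 lines were isolated from P as mutants whose GFP responded less to sulfur limitation, so all 3 lines carry the reporter and each mutant is a single line. Plants grew for 10 days on agar medium. S1500, the sufficient medium, had 1500 µM MgSO4 added, and S15, the low-sulfate medium, had 15 µM and MgCl2 in place of the rest, beside about 10 µM sulfate that washed agar gives off. Whole roots were taken. There were 6 groups, 1 per line and medium, with 2 arrays each that are labelled biological replicates. In whole roots, fewer cells of a type and less RNA per cell cannot be told apart.

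Sulfate taken up by roots is reduced to sulfide and built into cysteine and methionine. Plants short of sulfate raise transporters and sulfur-releasing enzymes and lower the synthesis of sulfur-rich glucosinolates, which in Brassicales are made from methionine and other amino acids. SLIM1, also called EIL3, is a transcription factor related to EIN3 that acts in both arms of this response. Of the 5 genes, AT3G57010 is annotated as strictosidine synthase-like; strictosidine synthase itself makes the precursor of the indole alkaloids of Catharanthus and Rauvolfia. For comparison with relatives, AT1G21440 was listed with the phosphoenolpyruvate mutase and isocitrate lyase superfamily and AT2G23910 with cinnamoyl-CoA reductase and related reductases. These placements come from general knowledge of the families, since the annotation used here gives none of the 5 genes a symbol, and AT2G28780 and AT3G14280 were given no role.

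All 60 member signals lay above the highest of the 27 Bacillus subtilis control probe sets on the same array, with deposited signals from 31.6 to 1634.1. Array medians ran from 65.65 to 174.95, and slim1-2-S15 replicate 2 was the brightest, so levels below are log2 signals after quantile normalization between arrays, given as replicate 1 and replicate 2. Across the 13647 tested probe sets, which are not independent replicates, arrays correlated at 0.982 to 0.988 within a group and at 0.964 to 0.987 between groups. PYK10, a beta-glucosidase abundant in roots, had signals of 5607.8 to 8941.8. AT1G04770, from a list of sulfur deficiency markers, was higher on S15 by 2.41 in slim1-1 and 2.32 in slim1-2 on the log2 scale. BGLU28, a beta-glucosidase of the same list, was also called higher in both lines (largest adjusted p of either gene 3.56e-07 from limma), with its signal above the controls on 9 of 12 arrays and thus no fold given.

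AT1G21440 had the largest fall of the 5 genes in each of the 3 lines. In P it stood at 10.54 and 10.56 on S1500 and at 8.49 and 8.19 on S15, and in slim1-1 at 10.57 and 10.47 on S1500 and 8.54 and 8.39 on S15. In slim1-2 it stood at 10.22 and 10.01 on S1500 and 8.43 and 8.66 on S15. The 6 low-sulfate arrays lay close together, all below every S1500 array, and the slim1-2 arrays on S1500 lay below those of the other lines. The difference was -2.21 in P (4.62-fold). It was -2.06 ± 0.117 in slim1-1 (SE of the fit, n = 2 arrays per group; 4.16-fold lower, adjusted p = 8.04e-08 from limma) and -1.57 ± 0.117 in slim1-2 (2.97-fold lower, adjusted p = 1.70e-06). Both calls held whichever array was left out.

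AT2G28780 was the next in size. Its P arrays read 9.19 and 9.36 on S1500 and 7.80 and 7.22 on S15, a difference of -1.77. Its slim1-1 arrays read 9.08 and 9.17 on S1500 and 7.83 and 7.89 on S15, and its slim1-2 arrays 9.19 and 9.03 on S1500 and 8.20 and 8.24 on S15. On S1500 the arrays of slim1-1 and slim1-2 overlapped and lay just below those of P, with group means of 9.12, 9.11 and 9.27 in that order, whereas on S15 the means were 7.51 in P, 7.86 in slim1-1 and 8.22 in slim1-2. The fall was -1.26 ± 0.149 in slim1-1 (2.40-fold lower, adjusted p = 0.000215 from limma) and -0.89 ± 0.149 in slim1-2 (1.86-fold lower, adjusted p = 0.00348), and both calls held whichever array was left out.

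AT3G57010, the strictosidine synthase-like gene, read 9.64 and 9.68 on S1500 and 8.31 and 8.34 on S15 in P, a difference of -1.34. It read 9.26 and 9.44 on S1500 and 8.55 and 8.40 on S15 in slim1-1, and 9.43 and 9.35 on S1500 and 8.84 and 9.06 on S15 in slim1-2. The media did not overlap within any line, and the slim1-2 arrays were the highest of the S15 arrays. The fall was -0.87 ± 0.103 in slim1-1 (1.83-fold lower, adjusted p = 0.000206 from limma) and -0.44 ± 0.103 in slim1-2 (1.36-fold lower, adjusted p = 0.0326). The slim1-2 call was lost when any of 5 single arrays was left out (either P-S1500 array, either slim1-2-S1500 array, or slim1-2-S15 replicate 1), with differences from -0.55 to -0.33 over all 12 such fits.

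The other strictosidine synthase-like genes tested were not called. Of 14 listed relatives 5 are named on the array and 4 were tested. The mean slim1 response is defined as the average of the slim1-1 and slim1-2 differences. In it 0 of the 4 were called by limma, beside 751 of all 13647 tested probe sets. An unadjusted p under 0.05 was reached by 1 of the 4, beside 17.2% of all. Counts of so few genes do not set the relatives apart from that background. The next 2 genes after AT3G57010 in the TAIR10.1 gene order, AT3G57020 and AT3G57030, are both on that list. AT3G57020 differed by -0.22 ± 0.0908 (adjusted p = 0.225) and AT3G57030 by 0.10 ± 0.0957 (adjusted p = 0.663), against -0.66 ± 0.0726 for AT3G57010 itself (adjusted p = 4.93e-05). AT3G51440 and AT3G51450 differed by 0.07 and -0.24, and the median of the 4 was -0.07 beside 0.01 for all probe sets tested. The difference between AT3G57010 and its relatives was not tested.

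AT3G14280 read 9.31 and 9.35 on S1500 and 8.12 and 7.84 on S15 in P, a difference of -1.35. In slim1-1 it read 8.80 and 8.69 on S1500 and 8.15 and 8.12 on S15. In slim1-2 it read 8.32 and 8.50 on S1500 and 8.09 and 8.51 on S15, so its media overlapped in that line alone. Levels on S1500 stood in the order P, slim1-1, slim1-2, with no overlap between neighbours, and levels on S15 overlapped between slim1-2 and the other lines. The fall was -0.61 ± 0.136 in slim1-1 (1.52-fold lower, adjusted p = 0.0319 from limma), a call lost when any single P-S1500 or slim1-1 array was left out (-0.66 to -0.55). In slim1-2 the difference was -0.11 (95% interval -0.40 to 0.19, adjusted p = 0.804), and -0.32 without slim1-2-S15 replicate 2 (adjusted p = 0.443).

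AT2G23910 had its levels on S1500 in the same order as AT3G14280, P, slim1-1, slim1-2, with wider gaps. It read 7.94 and 7.76 on S1500 and 6.40 and 6.02 on S15 in P, a difference of -1.64. In slim1-1 it read 7.09 and 6.60 on S1500 and 6.09 and 5.23 on S15, and in slim1-2 5.49 and 4.91 on S1500 and 5.09 and 5.17 on S15. The slim1-2 arrays were low on both media, 3 of 4 below every slim1-1 array, and the weakest signal of the gene was 1.29 times the control level of its array. The mean of 6.15 over all arrays passed the filter of 5.77 on low signals. The slim1-1-S15 group mean, 5.66, and both slim1-2 group means, 5.20 and 5.13, lay under it. The slim1-1-S1500 mean, 6.84, and the P means, 7.85 and 6.21, lay above it. The mutant groups alone averaged below 5.77, so the gene passed the filter only with the P arrays, which also chose it. Its tests between mutant arrays are therefore not independent of the choice. The fall in slim1-1 was -1.18 ± 0.279 (2.26-fold lower, adjusted p = 0.0429 from limma), and the call remained in 3 of 12 fits that left out 1 array (-1.61 to -0.75; lost without any P array, either slim1-1-S1500 array, slim1-1-S15 replicate 2 or either slim1-2-S15 array). With no filter the slim1-1 call was lost as well (adjusted p = 0.154 from limma). In slim1-2 the difference was -0.07 (95% interval -0.67 to 0.53, adjusted p = 0.949).

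**Figure D1:**
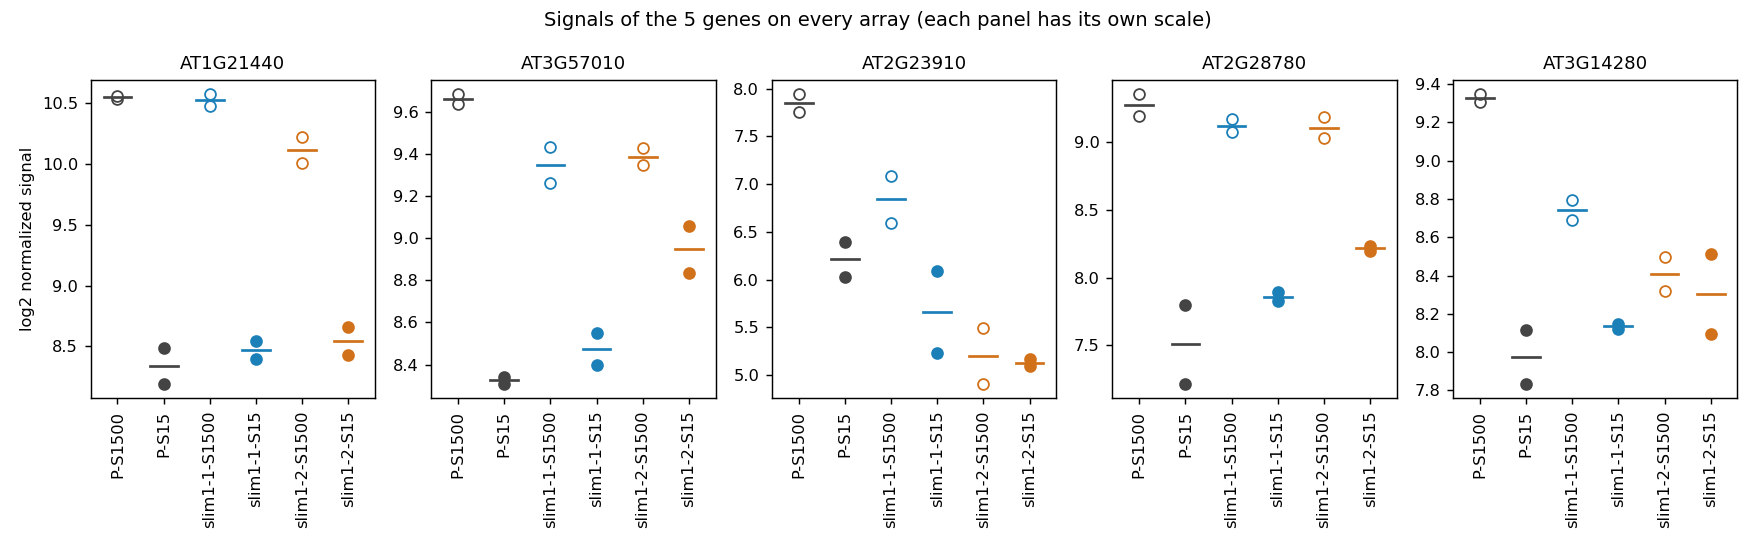
Log2 normalized signal (y axis) of each gene on the 12 arrays, by line and medium; circles are single arrays, open for S1500 and filled for S15, bars are means of 2 arrays, and each panel has its own scale. AT1G21440, AT2G28780 and AT3G57010 show S15 arrays below S1500 arrays in every line, and AT2G23910 shows both slim1-2 groups near 5.

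Over the set, 5 of 5 genes were called lower in slim1-1, where 1.39% of all tested probe sets were, and 3 of 5 in slim1-2, where 1.99% were. The slim1-1 counts include AT2G23910, which passed the filter only with the P arrays that chose it, so they are not independent of the choice. The arrays of both media did not overlap, with S15 lower, for 5 genes in slim1-1 (18.8% of all tested probe sets) and for 3 genes in slim1-2 (19.7%). The median difference was -1.64 in P, -1.18 in slim1-1 and -0.44 in slim1-2, beside 0.00, 0.00 and 0.01 for all tested probe sets. With signals as deposited, where the median over all tested probe sets moved by 0.61 in slim1-2 and 0.02 in slim1-1, 1 gene in slim1-1, AT1G21440, and 0 genes in slim1-2 were called. Measured against those shifts, the 5 differences were -2.08, -1.29, -0.89, -0.62 and -1.12 in slim1-1 and -1.58, -0.90, -0.46, -0.11 and -0.13 in slim1-2, in the order AT1G21440, AT2G28780, AT3G57010, AT3G14280 and AT2G23910. With no filter on low signals or without the intensity trend of the fit, 3 genes were called in slim1-1 and 2 in slim1-2.

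**Figure D2:**
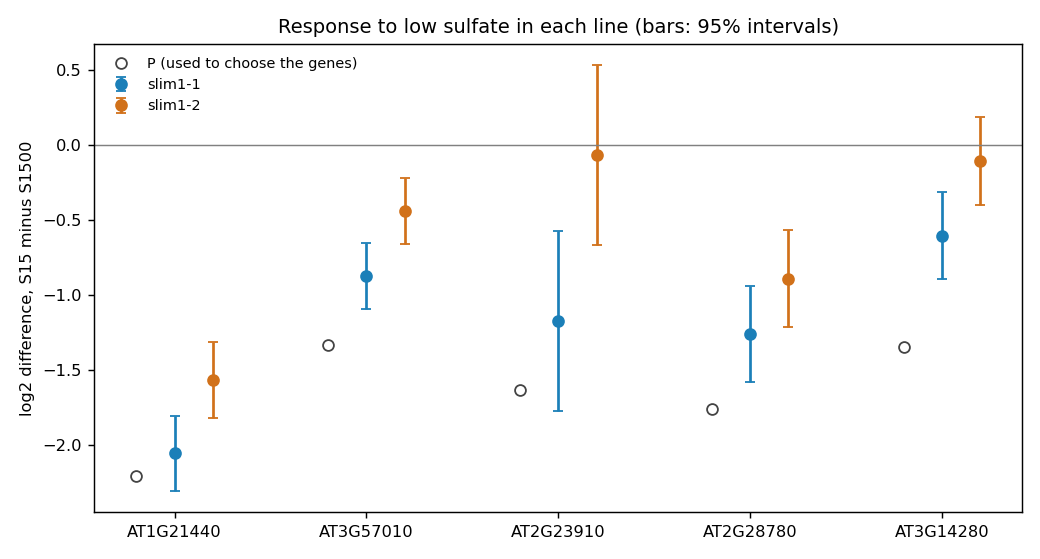
Log2 difference between S15 and S1500 (y axis) for each gene in P, slim1-1 and slim1-2; bars are 95% intervals of the fit, and P has none because it was used to choose the genes. The slim1-2 intervals of AT2G23910 and AT3G14280 include 0, and the other 8 mutant intervals lie below it.

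Averaged over the mutant lines, 4 of 5 genes were called lower, beside 3.17% of all tested probe sets, and for 3 of them, AT1G21440, AT2G28780 and AT3G57010, all 4 S15 arrays lay below all 4 S1500 arrays, beside 4.42%. AT1G21440 changed by -1.81 ± 0.0825 (adjusted p = 3.47e-09 from limma), the 9th lowest of the 13647 tested probe sets, AT2G28780 by -1.08 ± 0.106 (adjusted p = 1.60e-05) and AT3G57010 by -0.66 ± 0.0726 (adjusted p = 4.93e-05). AT3G14280 changed by -0.36 ± 0.0963 (adjusted p = 0.046), with the call remaining in 4 of 12 fits that left out 1 array (-0.46 to -0.25; kept without either P-S15 array, slim1-2-S1500 replicate 1 or slim1-2-S15 replicate 2). It was also lost with no filter (adjusted p = 0.0948), without the intensity trend (0.0917) and with the replicate number as a block (0.0531). AT2G23910 differed by -0.62 ± 0.197 (adjusted p = 0.0917), and passed without slim1-1-S15 replicate 1 (-0.84, adjusted p = 0.0215) and with the block (adjusted p = 0.0285). Leaving out the bright array, slim1-2-S15 replicate 2, left the calls of the same 4 genes in place, with differences from -1.88 to -0.46. Without normalization between arrays AT1G21440 alone was called.

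**Figure D3:**
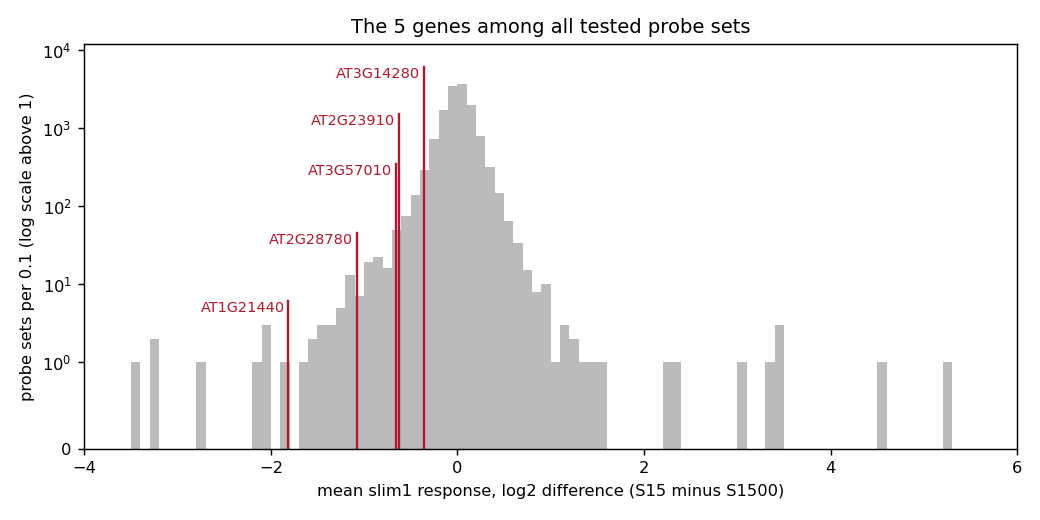
Number of tested probe sets (y axis, log scale above 1) by their mean slim1 response, the log2 difference between S15 and S1500 averaged over both mutant lines (x axis, bins of 0.1); red lines mark the 5 genes. AT1G21440 at -1.81 lies in the far lower tail and AT3G14280 at -0.36 nearest the centre.

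Whether the mutant lines responded alike was tested as the slim1-2 response minus the slim1-1 response. The difference was positive for all 5 genes, 0.49 ± 0.165 for AT1G21440, 0.37 ± 0.211 for AT2G28780, 0.43 ± 0.145 for AT3G57010, 0.50 ± 0.193 for AT3G14280 and 1.11 ± 0.395 for AT2G23910. None was called by limma (adjusted p from 0.706 to 0.939), beside 0.11% of all tested probe sets, and 4 of 5 had an unadjusted p under 0.05, beside 5.38% of all. The 5 genes were read on the same mutant arrays and correlate with each other, so the shared sign and this count are not independent observations. The slim1-2 signals of AT2G23910 were also weak. The 95% intervals ran from -0.08 to 0.83 for AT2G28780 and from 0.26 to 1.96 for AT2G23910. Without slim1-2-S15 replicate 2 the differences were 0.38, 0.36, 0.32, 0.29 and 1.07 in the same order. Over all 12 fits that left out 1 array, AT2G23910 ranged from 0.68, without slim1-1-S15 replicate 2, to 1.535, and AT3G14280 from 0.29 to 0.71. With a pseudocount of 64 AT2G23910 was at 0.60. With signals as deposited the 5 differences ran from 0.98 to 1.58, or from 0.39 to 0.99 above the median of all tested probe sets (0.59).

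On S1500, AT2G23910 was lower in slim1-2 than in slim1-1 by -1.64 ± 0.279 (3.12-fold, adjusted p = 0.0063 from limma), the 4th lowest of all tested probe sets in that comparison, where 0.52% were called lower. The gene was among the tested probe sets only through the P arrays, so this rank and call are not independent of the choice. Its slim1-2-S1500 signals were weak, 2.04 and 1.87 times the control level of their arrays. The call was lost without slim1-1-S1500 replicate 1 (-1.40, adjusted p = 0.0994) or slim1-2-S1500 replicate 2 (-1.36, adjusted p = 0.065), and without normalization between arrays (-1.78, adjusted p = 0.0692). The call was kept with no filter, and with a pseudocount of 64 it was kept at -0.82. AT1G21440 differed by -0.41 ± 0.117 (adjusted p = 0.122) and AT3G14280 by -0.33 ± 0.136 (adjusted p = 0.358), with no overlap of arrays for these 2 genes as for AT2G23910 (20.6% of all tested probe sets). AT2G28780 differed by -0.01 (95% interval -0.34 to 0.31) and AT3G57010 by 0.04 (-0.18 to 0.26). On S15, 0 of 5 genes were called by limma between the mutant lines, beside 0.183% of all tested probe sets. An unadjusted p under 0.05 was reached by 2, beside 6.02% of all. AT3G57010 was 0.47 ± 0.103 higher in slim1-2 (adjusted p = 0.102 from limma) and AT2G28780 0.36 ± 0.149 higher (adjusted p = 0.762). AT2G23910, with weak slim1-2 signals, differed by -0.53 ± 0.279 (adjusted p = 0.881 from limma). AT1G21440 and AT3G14280 differed by 0.08 and 0.17.

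Markers of green tissue moved in the same comparisons. Of 8 listed shoot markers 3 are named on the array, RCA, LHCB4.1 and LHCB4.2, none at 0 on any array. All 3 were called higher in slim1-2 than in slim1-1 on S1500, by 0.71, 0.69 and 0.82, and on S15 in slim1-2 RCA (-0.72) and LHCB4.2 (-1.65) were called lower, with LHCB4.1 at -0.41 (adjusted p = 0.192 from limma). In slim1-1 LHCB4.2 was the 1 of 3 called (-0.70). Their summed normalized signal was 1310 to 1499 in P-S1500, 1108 to 1118 in P-S15, 791 to 843 in slim1-1-S1500, 704 to 797 in slim1-1-S15, 1334 to 1352 in slim1-2-S1500 and 804 to 845 in slim1-2-S15. Of 5 root hair markers 3 are named, with sums of 727 to 731 and 1131 to 1153 in P, 635 to 689 and 659 to 768 in slim1-1, and 853 to 1092 and 846 to 902 in slim1-2, on S1500 and S15. EXPA18 was the 1 called between the mutant lines on S1500, 0.71 higher in slim1-2. The part of these tissues in the results above was not tested. The 1 named endodermis marker, GSO1, the 1 named stele marker, XTH20, and PYK10 were not called in either mutant response (log2 differences from -0.01 to 0.29).

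Levels in the mutants were set beside P without a test, since the P arrays chose the genes. On S1500, slim1-1 and slim1-2 minus P were -0.02 and -0.43 for AT1G21440, -0.15 and -0.17 for AT2G28780, -0.31 and -0.27 for AT3G57010, -0.59 and -0.92 for AT3G14280, and -1.01 and -2.65 for AT2G23910. The last was the lowest value of all 13647 tested probe sets between slim1-2 and P on S1500. That rank is no independent support, since it rests on the P-S1500 arrays used in the choice. It also rests on weak slim1-2-S1500 signals, 2.04 and 1.87 times the control level of their arrays. On S15 they were 0.13 and 0.21 for AT1G21440, 0.35 and 0.71 for AT2G28780, 0.15 and 0.62 for AT3G57010, 0.16 and 0.33 for AT3G14280, and -0.55 and -1.08 for AT2G23910. The AT2G23910 means of both mutants were below P on both media, and in slim1-1 on S15 the difference ranged from -0.98 to -0.12 when single arrays were left out. With a pseudocount of 64 its slim1-2 differences were -1.54 on S1500 and -0.48 on S15. For slim1-1 on S15, leaving out P-S15 replicate 2 took AT1G21440 to -0.021, AT2G28780 to 0.058 and AT3G14280 to 0.018, and leaving out P-S15 replicate 1 took them to 0.27, 0.64 and 0.30. For slim1-2 on S15 the same fits gave 0.059 and 0.35 for AT1G21440, 0.42 and 0.999 for AT2G28780, and AT3G14280 ranged from 0.12 to 0.54 over all fits. On S1500 the slim1-1 difference of AT1G21440 changed sign over these fits (-0.073 to 0.027). With signals as deposited, where the median of slim1-1 minus P on S1500 was 0.34, AT1G21440, AT2G28780 and AT3G57010 stood at 0.31, 0.19 and 0.024 there. The mean slim1 response minus the P response was 0.39, 0.69, 0.68, 0.99 and 1.01 in the order AT1G21440, AT2G28780, AT3G57010, AT3G14280 and AT2G23910. Without P-S15 replicate 2 it was 0.25 for AT1G21440 and 0.39 for AT2G28780. These comparisons share the P arrays with each other and with the choice of the genes.

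Across the 12 arrays 3 of the genes followed each other most closely. AT1G21440, AT2G28780 and AT3G57010 correlated with each other at Pearson r of 0.92 to 0.96, AT3G14280 with those 3 at 0.82 to 0.85, and AT2G23910 with them at 0.42 to 0.58 but with AT3G14280 at 0.74. Each correlation is a description over 12 arrays that share 6 groups, and the P arrays in them chose the genes. Among the other 7331 tested probe sets with 1 gene, BCAT4, the aminotransferase that starts methionine chain elongation for glucosinolates, was nearest to AT1G21440 (r = 0.988), followed by AT4G30450 (0.984) and AT2G31790 (0.972). BCAT4 differed between media by -5.12 in P, -3.76 in slim1-1 and -3.19 in slim1-2, and AT4G30450 by -0.72, -0.66 and -0.35. AT2G28780 was nearest to AT2G31790 (0.974), CBL (0.966), a cystathionine beta-lyase of methionine synthesis, and AT3G45700 (0.961). AT3G57010 was nearest to GSTU20 (0.959), a glutathione S-transferase, then AT2G28780 (0.958) and AT5G10210 (0.954).

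AT2G23910 had other neighbours. The nearest were AT1G06000 (r = 0.962), CHIL (0.932), a chalcone isomerase-like gene of flavonoid synthesis, and AT1G47530 (0.928). AT1G06000 differed between media by -0.57 in P, -0.50 in slim1-1 and 0.05 in slim1-2, and CHIL by -0.55, -0.47 and 0.12. On S1500 both stood below P in the mutants, AT1G06000 by -0.47 in slim1-1 and -1.39 in slim1-2 and CHIL by -0.27 and -1.52. AT3G14280 was nearest to AT1G73600 (0.906), AT3G46880 (0.897) and AT5G41190 (0.895), with lower correlations than the other 4 genes reached. AT1G73600 differed between media by -0.93 in P, -0.57 in slim1-1 and -0.11 in slim1-2, where AT3G14280 differed by -1.35, -0.61 and -0.11.

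**Figure D4:**
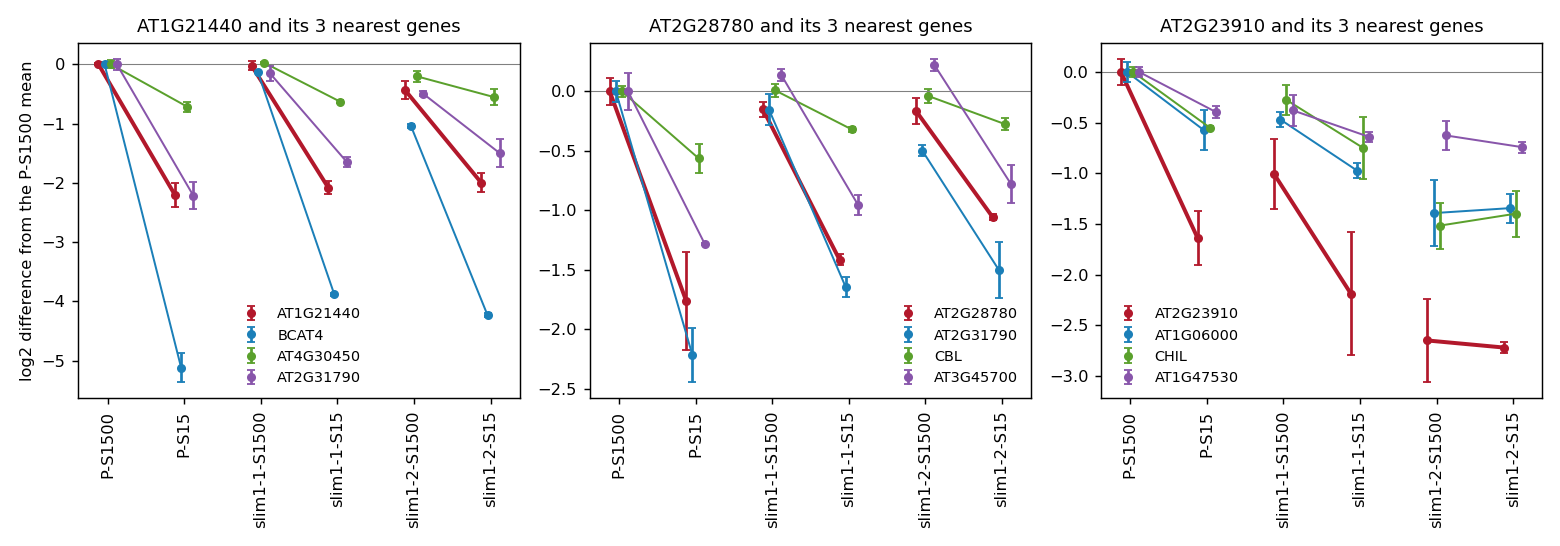
Group means relative to P-S1500 (y axis, log2 difference) of AT1G21440, AT2G28780 and AT2G23910, each with the 3 genes of most similar signal across the 12 arrays; error bars are SD of 2 arrays, and lines join the media within a line. The first 2 panels fall on S15 in every line, whereas the AT2G23910 panel is low in slim1-2 on both media.

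The list of aliphatic glucosinolate synthesis, from which 3 of the nearest genes come, was read beside the 5 genes. Its genes BCAT4, AT2G25450, AT2G31790 and GSTU20 hold ranks 1, 3, 4 and 6 in the ranking by fall in P that gave the 5 genes. Their likeness to the 5 genes and their falls are therefore no independent support. Of 25 listed genes 5 are named on the array and all were tested. In slim1-1 5 of 5 were called lower, with a median of -1.49, and in slim1-2 4 of 5, with a median of -1.004, where the background of lower calls is as above. The differences in slim1-1 and slim1-2 were -2.09 and -1.99 for AT2G25450, -1.14 and -0.96 for GSTU20, and -1.49 and -1.004 for AT2G31790 (largest adjusted p = 0.00126 from limma). UGT74B1, the glucosyltransferase of the glucosinolate core, fell by 0.63 in slim1-1 (adjusted p = 0.00807) and stood at 0.04 in slim1-2 (adjusted p = 0.922). BCAT4 and UGT74B1 were lower in slim1-2 than in slim1-1 on S1500, by -0.91 and -0.60 (adjusted p = 0.00029 and 0.0128).

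Relatives and neighbours of the remaining genes gave no calls. The 3 listed relatives of AT1G21440, AT1G77060, AT2G43180 and ICL (isocitrate lyase), are named on the array but lay below the filter on low signals, with deposited signals of 22.1 to 62.3, 1.9 to 28 and 1.6 to 32.8. Of 9 listed relatives of AT2G23910, 6 are named and 4 were tested, AT4G30470, CCR2 (a cinnamoyl-CoA reductase), AT2G02400 and AT5G58490, and 0 were called by limma in the mean slim1 response, with 2 at an unadjusted p under 0.05. Of these 2, AT4G30470 differed there by 0.27 ± 0.0974 (adjusted p = 0.157 from limma), opposite in sign to AT2G23910. AT5G58490 differed by -0.20 ± 0.0729 (adjusted p = 0.156 from limma), with the same sign as AT2G23910. Of the 20 genes that lie 2 to either side of the 5 genes in the TAIR10.1 order, 9 are named on the array and 7 were tested. In the mean slim1 response 0 were called by limma, with 1, AT3G57020, at an unadjusted p under 0.05 (differences from -0.22 to 0.10). Over all 13647 tested probe sets, 751 were called in that response and 17.2% had an unadjusted p under 0.05. Counts of so few relatives and neighbours do not set them apart from that background.

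The choice of the genes had a threshold. They are ranks 5, 7, 8, 9 and 10 among the probe sets with 1 gene, a called fall and no overlap of arrays in P, whose list of 10 was closed at AT3G57010 with -1.34. AT3G45700 at -1.28 and AT5G40630 at -1.27 lay just outside. In P, 2.06% of all tested probe sets were called lower, and the arrays did not overlap, with S15 lower, for 23.6%.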

How the data were processed

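Roots of 3 lines on 2 media were profiled on 12 Affymetrix arrays. The deposited intensity values, linear signals per probe set, came from MAS5, as the submitters' processing notes name it; its version and scaling target are not stated there. Sample titles gave the groups and replicate numbers. Signals under 1 were set to 1, log2-transformed and, since array medians spanned 1.41 on that scale, quantile-normalized. After 64 controls were left out of 22810 probe sets, the 13647 with a mean over the 40th percentile (5.77) were tested. limma 3.58.1 in R 4.3.3 fitted group means to all 12 arrays, and eBayes used the intensity trend (residual degrees of freedom 6, prior 7.76). Two-sided p-values were adjusted by Benjamini-Hochberg over all tested probe sets, with calls at an adjusted p under 0.05. Levels of different probe sets were not compared. Precision is limited by having 2 arrays per group.

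Scripts were tested on simulated data. The 5 genes and the gene lists were chosen with earlier results of these data known. Other genes were named by rule: the 3 tested probe sets nearest each gene by Pearson correlation, members of the lists (glucosinolate synthesis, gene families, sulfur deficiency, tissue markers) and neighbours in gene order. The annotation gives 1 gene for 13513 probe sets and several for 503; 8794 are unnamed here. Promoter motifs were not analysed here. Alternatives tried were median centring, signals as deposited, pseudocounts of 16 and 64, no filter or one at the 60th percentile, signals raised to the control level, no trend, a replicate block, and dropping each array in turn.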

Additional observations from a re-analysis of the deposited data

How the results depend on the processing

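AT1G21440 kept its direction and call in slim1-1 and in the mean slim1 response under all 21 alternatives. With no filter or without the intensity trend, the calls of AT2G23910 (-1.18) and AT3G14280 (-0.61) in slim1-1, AT3G57010 in slim1-2 (-0.44) and AT3G14280 in the mean slim1 response (-0.36) were lost with unchanged differences, leaving 3 members called in slim1-1. With the filter at the 60th percentile AT2G23910 was not tested, so 0 members were called between the mutant lines on S1500.

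Signals as deposited called 1 member in slim1-1, 0 in slim1-2, 1 in the mean slim1 response and 0 on S1500. In slim1-1 AT3G57010 (-0.88), AT2G23910 (-1.10), AT2G28780 (-1.27) and AT3G14280 (-0.60) lost their calls, in slim1-2 AT1G21440 (-0.97) and AT2G28780 (-0.29) did, and AT3G57010 reversed to 0.15, below the median shift of 0.61. In the mean slim1 response AT3G57010 (-0.36), AT2G28780 (-0.78) and AT3G14280 (-0.045) lost theirs, as did AT2G23910 on S1500 (-1.78). With a pseudocount of 64, which shrinks differences of weak signals, AT2G23910 kept its calls at -0.63 in slim1-1 and -0.82 on S1500.

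The replicate block gave AT2G23910 a call in the mean slim1 response (-0.62, adjusted p = 0.0285 from limma) and took that of AT3G14280 (-0.36, adjusted p = 0.0531). It called 783 probe sets there against 751. The labels do not say whether the replicate numbers pair the arrays across groups. Deviations of same-numbered arrays correlated at -0.12 to 0.23, over 0.1 in 4 of 15 pairs of groups. With 2 arrays per group this check cannot decide whether they are paired.

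Leaving out each array gave 3 to 5 members called in slim1-1, 2 to 3 in slim1-2, 3 to 4 in the mean slim1 response and 0 to 1 on S1500. Ranges were -1.61 to -0.75 for AT2G23910 and -0.66 to -0.55 for AT3G14280 in slim1-1, -0.55 to -0.33 for AT3G57010 in slim1-2, -0.84 to -0.41 for AT2G23910 and -0.46 to -0.25 for AT3G14280 in the mean slim1 response, and -1.93 to -1.36 for AT2G23910 on S1500. Counts of all called probe sets over these fits were 137 to 321 in slim1-1 (300 with all arrays), 196 to 387 in slim1-2 (416), 507 to 710 in the mean (751), 111 to 229 on S1500 (231), 6 to 35 on S15 (25) and 4 to 14 for the difference between lines (15). As deposited they were 24, 35, 57, 12, 1 and 0. For the difference between lines they were 5 with no filter, 8 at the 60th percentile and 4 without the trend, and on S15 9 with no filter and 3 without the trend. Where a call changed, the cause was not tested. Weak signals of AT2G23910 in slim1-2, near the control level, limit its values there.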
